A study of Mus musculus with 768 samples.

Results

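The receptors of the NKG2 and CD94 group and their relatives were followed in single tumor-infiltrating NK cells through 8 genes, of the 24490 gene entries deposited for every well. They were the entries named Klrc1, Klrc2, Klrc3, Klrd1, Klrk1, Klre1, Klri1 and Klri2, chosen by symbol, and each stood once in the data of both plates. NK cells were sorted from MTAP1A tumors, a fibrosarcoma line with low MHC class I that was derived from skin of a mouse lacking Tap1, grown in C57BL/6 mice that were WT or PD-1-/-. Viable cells, gated among other markers as NK1.1+ CD3- GR1-, from the pooled tumors of 3 mice per genotype filled 1 plate each, 768 wells in all, and SMART-SEQ2 libraries, which read along the whole transcript, were made from them. The mouse that a cell came from is not known and cells of a pool are not replicates, so no test between the genotypes was possible and no value carries a replicate error. Genotype and plate cannot be told apart. By the study's methods the mice were young adults matched for sex and age.

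Klrd1 encodes CD94, the shared chain that pairs with the NKG2 proteins on the surface of NK cells. With CD94, NKG2A (Klrc1) forms an inhibitory receptor, and NKG2C (Klrc2) and NKG2E (Klrc3) form activating receptors. These receptors bind Qa-1b, a nonclassical MHC class I molecule that presents peptides from the leaders of other class I molecules, a supply that depends on TAP. NKG2D (Klrk1) is a more distant relative that does not use CD94. It forms a homodimer, signals through the adaptors DAP10 (Hcst) and DAP12 (Tyrobp) and binds ligands induced by cell stress. KLRE1 pairs with KLRI1, an inhibitory partner, or with KLRI2, an activating partner. All 8 genes lie on chromosome 6 in the NK gene complex, in the order Klre1, Klrd1, Klrk1, Klrc3, Klrc2, Klrc1, Klri1, Klri2 in RefSeq.

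The 3 NKG2 genes are close copies, and the stretches below are shown because a read that falls within them does not tell the copies apart. They were read from the coding sequences of GENCODE vM21, 5′ to 3′, with positions counted from 1 at the first coding base of the longest coding transcript. The first is the longest coding run shared by Klrc2 and Klrc3, which starts at position 71 of both. The second is the 100-base run shared by Klrc1, at positions 633 to 732, and Klrc2, at positions 615 to 714, followed by the Klrc3 stretch at positions 564 to 663. A capital marks the 1 base at which Klrc3 differs there. The last is the 94-base run shared by Klri1 and Klri2, at positions 481 to 574 of both.
Klrc2 and Klrc3: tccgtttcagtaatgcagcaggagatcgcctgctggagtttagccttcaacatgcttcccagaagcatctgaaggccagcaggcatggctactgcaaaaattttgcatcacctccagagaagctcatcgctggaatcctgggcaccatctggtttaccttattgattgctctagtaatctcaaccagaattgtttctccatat
Klrc1 and Klrc2: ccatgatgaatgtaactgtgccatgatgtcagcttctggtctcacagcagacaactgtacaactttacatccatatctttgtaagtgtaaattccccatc
Klrc3, same stretch: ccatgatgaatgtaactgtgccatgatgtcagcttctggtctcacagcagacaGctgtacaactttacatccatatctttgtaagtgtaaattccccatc
Klri1 and Klri2: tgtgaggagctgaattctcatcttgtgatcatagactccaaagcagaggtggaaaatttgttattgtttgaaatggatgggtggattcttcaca

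Of all 40-base windows in the coding sequence, 30.4% of those of Klrc1, 49% of those of Klrc2 and 46.6% of those of Klrc3 also occurred in another of the 8 genes. The share was 10.6% for Klri1 and for Klri2, and 0% for Klrd1, Klrk1 and Klre1. How the deposited values divided reads from such stretches is not given in the sources used here, so levels of the 3 Klrc genes, and of Klri1 and Klri2, are uncertain. The size of this uncertainty is not known from the window shares, which cover coding sequence only, while reads run along the whole transcript. Of the Klrc1 windows, 21.6% occurred in Klrc2 and 11.8% in Klrc3, and of the Klrc2 windows 33.2% occurred in Klrc3.

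Levels were deposited as RPKM, reads scaled by transcript length and by sequencing depth, so that levels of different genes can be set side by side per length. Wells with 1000 to 3500 genes above 0 RPKM were kept, counting genes above 0 in at least 3 wells, which left 726 cells of the 768 wells, 360 of them WT and the rest PD-1-/-. Median recovered reads per cell were 337864.5 for WT and 359150 for PD-1-/-, and they ranged from 1447 to 594524 over both. Every gene of the NK list (Ncr1, Klrb1c, Tyrobp, Fcer1g, Eomes, Gzma, Nkg7, Prf1) was found in 55.2% of cells or more on either plate, and every gene of the B, myeloid, neutrophil and fibrosarcoma lists in at most 6.39%. Despite the sort, 18.1% of WT cells and 22.7% of PD-1-/- cells had a transcript of a CD3 chain gene (Cd3d, Cd3e or Cd3g). PD-1-/- mice lack some exons of Pdcd1 but not the whole gene, so that transcript can remain. Pdcd1 was listed above 0 in 2.50% of WT cells and 12.8% of PD-1-/- cells, with like means over all kept cells of 14.4 and 13.9 RPKM. Values per gene cannot show which of its exons the reads cover. Pdcd1 therefore does not check the labels, and the names WT and PD-1-/- follow those labels. Row A of the WT plate stood apart: of its 17 kept cells, 10 had Cxcr6, a chemokine receptor of tissue-resident lymphocytes, against 18 cells (5.25%) in all other WT rows. A CD3 chain gene was found in 10 of the 17 against 55 cells (16%) in the other rows, and Eomes in 5 of the 17 against 63.6%.

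Of the 8 genes, 3 were found in over 90% of the cells of both plates, and the other 5 divided the cells. A gene counted as found in a cell at an RPKM above 0, and each share has an exact 95% interval (Clopper-Pearson binomial), which covers counting error only. Klrd1 was found in 97.8% (95.7 to 99) of WT cells and 97.3% (95 to 98.7) of PD-1-/- cells. Klrk1 was found in 96.7% (94.3 to 98.3) of WT cells and 98.4% (96.5 to 99.4) of PD-1-/- cells. Klre1 was found in 95% (92.2 to 97) and 94.5% (91.7 to 96.6). Intervals of these 3 genes overlapped between the plates, and all 3 were found together in 91.7% of WT cells and 91.8% of PD-1-/- cells.

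**Figure D1:**
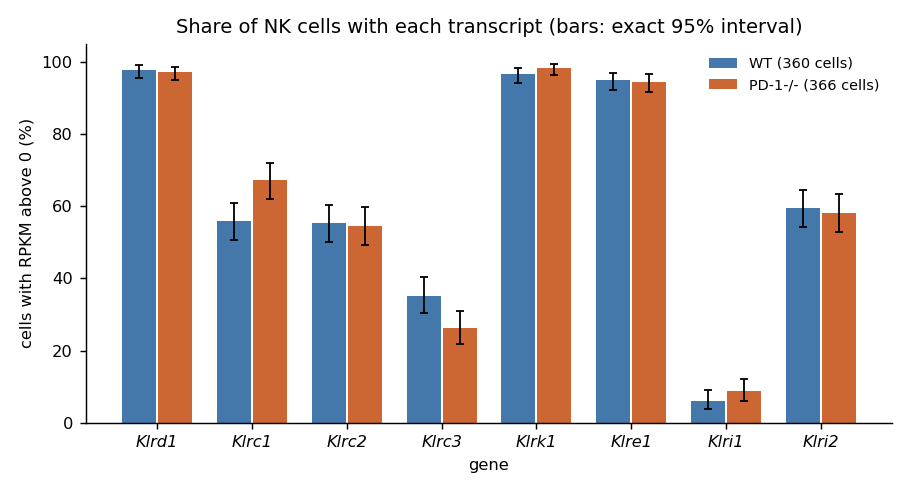
Share of kept cells with each transcript (y axis, percent of cells with RPKM above 0) for the 8 genes (x axis) on the WT (360 cells) and PD-1-/- plates. Bars are shares and lines are exact 95% intervals, with Klrc1 at 55.8% and 67.2% and Klrc3 at 35.3% and 26.2%.

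Among the NKG2 chains that pair with CD94, the inhibitory NKG2A gene was found about as often as the NKG2C gene on the WT plate and more often on the PD-1-/- plate, and the NKG2E gene least often on both. Klrc1 was present in 55.8% (50.5 to 61) of WT cells and 67.2% (62.1 to 72) of PD-1-/- cells. Klrc2 was present in 55.3% (50 to 60.5) of WT cells and 54.6% (49.4 to 59.8) of PD-1-/- cells. Klrc3 was present in 35.3% (30.3 to 40.5) of WT cells and 26.2% (21.8 to 31) of PD-1-/- cells. The PD-1-/- share minus the WT share was thus 11.4 percentage points for Klrc1, -0.63 for Klrc2 and -9.05 for Klrc3. Intervals of the 2 plates did not overlap for Klrc1 and overlapped slightly for Klrc3. The share of all genes whose intervals were apart is not given here, so this says nothing particular about Klrc1.

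Of the KLRE1 partners, the gene of the activating chain was found far more often than that of the inhibitory chain. Klri2 was present in 59.4% (54.2 to 64.6) of WT cells and 58.2% (53 to 63.3) of PD-1-/- cells. Klri1 was present in 22 WT cells, 6.11% (3.87 to 9.11), and 32 PD-1-/- cells, 8.74% (6.06 to 12.1). The Klri1 intervals overlapped between the plates.

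In cells with the transcript, Klrd1 had the highest level of the 8 genes. Its RPKM ran from 3.81 through a median of 1335 to 6688 in WT cells and from 9.70 through 1546 to 5451 in PD-1-/- cells. The middle 50% of cells with Klrd1 lay between 730.5 and 2007 RPKM on the WT plate and between 870 and 2306 on the PD-1-/- plate, so that the plates overlapped over nearly all of their range. Klre1 followed, with a lowest value of 2.79, a median of 683 and a highest value of 4985 RPKM in WT cells, and 11.3, 739 and 3859 RPKM in PD-1-/- cells. Klrk1 ran from 1.42 through 521 to 2699 RPKM in WT cells and from 1.05 through 543 to 1925 RPKM in PD-1-/- cells. For both genes the quartiles of the plates overlapped.

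Klrc1 was at a like level in cells of both plates that had it, with a lowest value of 1.31, a median of 360 and a highest value of 1416 RPKM in WT cells, and a lowest of 1.23 and a highest of 2346 RPKM in PD-1-/- cells, where the quartiles overlapped. They were 212.4 and 530.7 RPKM on the WT plate and 204.4 and 646 RPKM on the PD-1-/- plate. The activating chains were lower. Klrc2 had medians of 98.6 and 99.9 RPKM and highest values of 674 and 624, and Klrc3 had medians of 83.2 and 75.4 RPKM and highest values of 966 and 500 in WT and PD-1-/- cells. In the order of medians over cells with the transcript, Klrd1, Klre1, Klrk1 and Klrc1 came first on both plates, Klri1 and Klri2 were next to each other at 207.2 to 224.6 RPKM, and Klrc2 and Klrc3 were last. Klri2 reached 1676 RPKM in WT cells and 1027 in PD-1-/- cells, and Klri1, in its few cells, 1206 and 1221. The ranges between quartiles of each pair of neighbours in this order overlapped.

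**Figure D2:**
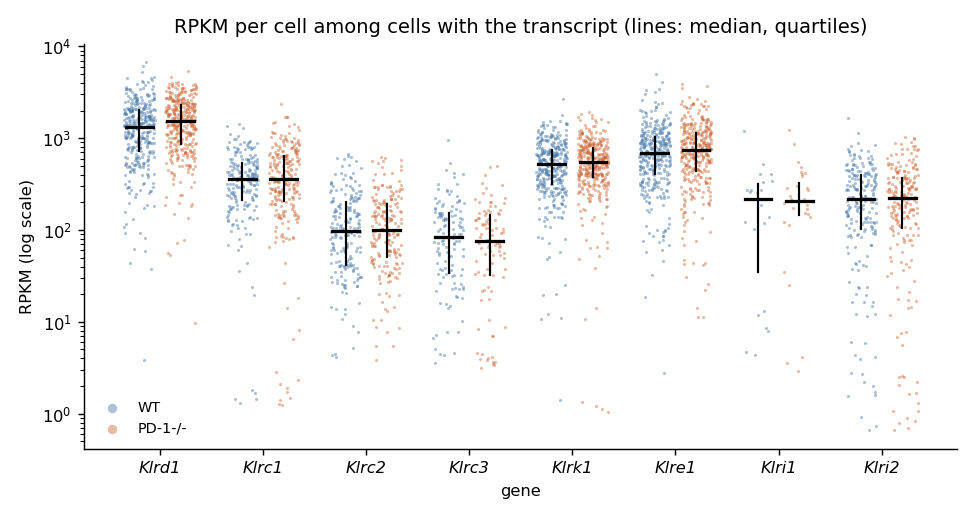
RPKM per cell (y axis, log scale) in cells with the transcript, for the 8 genes (x axis), with WT cells in blue and PD-1-/- cells in orange. Each point is 1 cell, wide lines are medians and vertical lines span the quartiles; Klrd1 is highest, with medians of 1335 and 1546 RPKM, and Klrc3 is lowest, with 83.2 and 75.4.

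Low values also showed how these numbers are built. Where reads are whole, the low RPKM of a gene are multiples of the value of 1 read. For Klrc3, Klrd1, Klre1, Klri1 and Klri2, 100% of the values under 60 reads were multiples of a single step, within a relative tolerance of 0.0003. The share was 51.6% for Klrc1, 31.4% for Klrc2 and 57.1% for Klrk1. For Klrc2, the rest of 370 low values were all multiples of another step, 0.90 times the first. In a cell of median depth, 1 read was worth 0.788 RPKM for Klri2 and 4.63 RPKM for Klrc3, so that the lowest values, 0.657 RPKM for Klri2 and 3.15 for Klrc3, were close to the worth of 1 read. Requiring at least 10 RPKM would take 5 WT cells and 11 PD-1-/- cells from those with Klrc1, and 9 and 15 from those with Klrc3.

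The NKG2 genes were distributed over cells in all 8 possible combinations. At least one of Klrc1, Klrc2 and Klrc3 was found in 89.4% (85.8 to 92.4) of WT cells and 92.9% (89.8 to 95.3) of PD-1-/- cells. Klrc1 without the other NKG2 genes was the commonest state on both plates, in 24.7% (20.4 to 29.5) of WT cells and 29.2% (24.6 to 34.2) of PD-1-/- cells. Klrc1 with Klrc2 but not Klrc3 was found in 11.9% (8.78 to 15.7) of WT cells and 21.6% (17.5 to 26.2) of PD-1-/- cells, the one state whose intervals did not overlap between the plates. Without the share of all genes or gene combinations with intervals apart, this says nothing particular about that state. The states also depend on how reads shared by the 3 genes were divided, which is not known. Cells with Klrc2 or Klrc3 but no Klrc1, which had transcripts of activating chains only, made up 33.6% (28.8 to 38.8) of WT cells and 25.7% (21.3 to 30.5) of PD-1-/- cells. Klrc3 was seldom the only NKG2 gene of a cell, in 8 WT and 3 PD-1-/- cells.

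**Figure D3:**
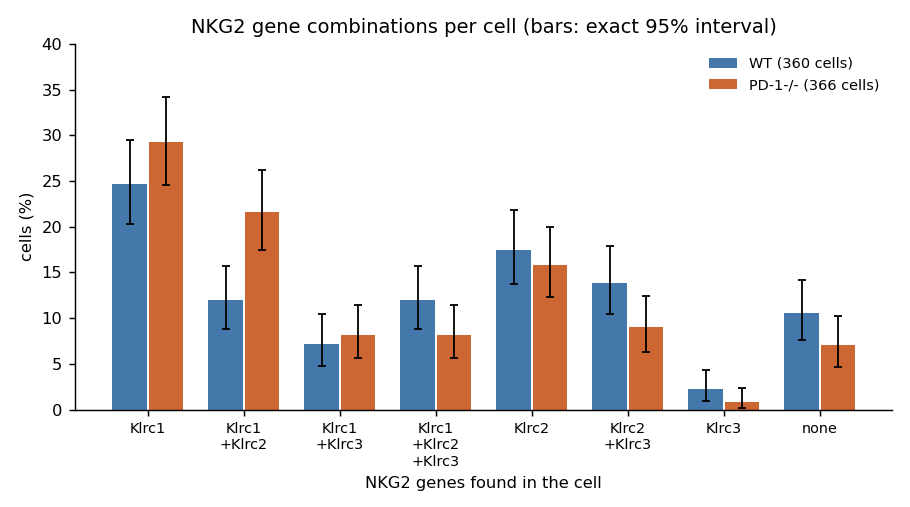
Share of kept cells (y axis, percent) with each combination of Klrc1, Klrc2 and Klrc3 above 0 RPKM (x axis) on the WT (360 cells) and PD-1-/- plates, with exact 95% intervals as lines. Klrc1 alone is the tallest pair of bars, at 24.7% and 29.2%, and Klrc1 with Klrc2 differs most, at 11.9% and 21.6%.

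By level, too, the inhibitory chain led. Of cells with any NKG2 gene, Klrc1 was the highest of the 3 in 56.2% (50.6 to 61.7) on the WT plate and 65.6% (60.3 to 70.6) on the PD-1-/- plate. Klrc1 made up 65.3% of the summed RPKM of the 3 genes on the WT plate and 75% on the PD-1-/- plate. Klrc2 gave 22.8% and 18.5%, and Klrc3 gave 12% and 6.55%. More of the coding windows of Klrc2 and Klrc3 than of Klrc1 were shared, and the part of shared reads in this ranking was not tested.

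The CD94 gene was present whichever NKG2 gene a cell had. Klrd1 was found in 96.5% (93 to 98.6) of WT cells with Klrc1 and in 99.4% (96.5 to 99.98) of those without it, and in 98% and 95.8% of the PD-1-/- cells. It was found in 99% of WT cells with Klrc2 and 97.6% of those with Klrc3, and in 98.5% and 96.9% on the PD-1-/- plate. Of 38 WT and 26 PD-1-/- cells with no NKG2 gene, 37 and 24 still had Klrd1. A cell thus had both chains of CD94/NKG2A in 53.9% (48.6 to 59.1) of WT cells and 65.8% (60.7 to 70.7) of PD-1-/- cells, close to the shares with Klrc1 regardless of Klrd1.

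Levels of Klrd1 were lower in cells with Klrc1 than in cells without it on both plates, by less than the spread between cells. The median in cells with Klrd1 was 1211 RPKM with and 1426 without Klrc1 on the WT plate, and 1382 with and 1761 without it on the PD-1-/- plate. With Klrc2 the order was the other way, at 1425 with and 1169 without on the WT plate, and 1638 and 1401 on the PD-1-/- plate. The quartiles overlapped in all 4 of these comparisons.

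Detection of one NKG2 gene went with that of another in different directions. Klrc2 was found in 42.8% (35.9 to 49.9) of WT cells with Klrc1 and 71.1% (63.4 to 78) of those without it. On the PD-1-/- plate these shares were 44.3% (38 to 50.8) and 75.8% (67.2 to 83.2). In contrast, Klrc3 was found in 46.7% (39.7 to 53.9) of WT cells with Klrc2 and 21.1% (15.1 to 28.2) of those without it, and in 31.5% (25.1 to 38.4) and 19.9% (14.1 to 26.8) of the PD-1-/- cells. Klrc3 was found in like shares of cells with and without Klrc1, 34.3% and 36.5% on the WT plate and 24.4% and 30% on the PD-1-/- plate. Klrc2 and Klrc3 share the run printed first above, and the part of shared reads in their joint detection was not tested.

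Mean levels showed the same order. These means ran over all cells of each group, including cells without the transcript, so they partly restate the shares above. The medians of Klrc1 given after them, over cells that had it, compare its level apart from detection. Mean RPKM of Klrc1 was 140.7 in WT cells with Klrc2 and 331.1 in those without it, and 204.4 and 438.5 on the PD-1-/- plate. Mean RPKM of Klrc2 was 49.2 in WT cells with Klrc1 and 116.2 in those without it, and 43.6 and 144.2 on the PD-1-/- plate. Among cells that had Klrc1, its median was lower in those with Klrc2, at 297.5 against 395.5 RPKM on the WT plate and 292.5 against 438.4 on the PD-1-/- plate. The quartiles overlapped on both plates. Klrc1 and Klrc2 share the run printed second above, and the part of shared reads in these values was not tested.

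**Figure D4:**
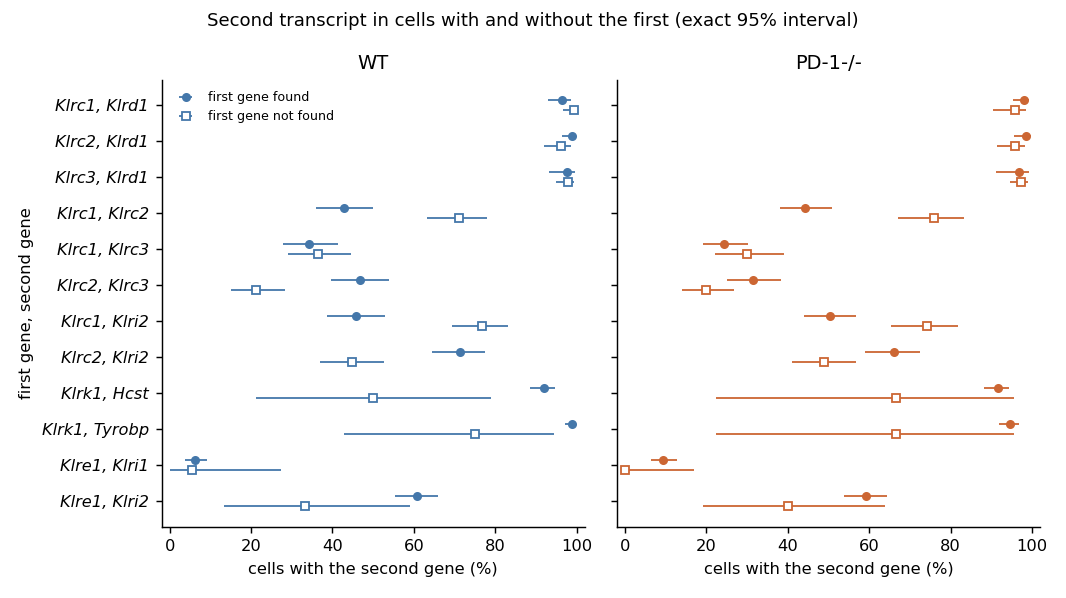
Share of cells with the second gene of a pair (x axis, percent) among cells with (filled circles) and without (open squares) the first gene, for 12 pairs (y axis), WT left and PD-1-/- right; lines are exact 95% intervals. Klrd1 lies near 100% both with and without each NKG2 gene, and the adaptor genes lie lower without Klrk1, on few cells. Klrc2 and Klri2 are found less often with Klrc1 than without it on both plates.

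The gene of KLRI2 followed the same split. Klri2 was found in 45.8% (38.7 to 52.9) of WT cells with Klrc1 and 76.7% (69.4 to 83.1) of those without it, and in 50.4% (44 to 56.8) and 74.2% (65.4 to 81.7) of PD-1-/- cells. It was found in 71.4% (64.5 to 77.5) of WT cells with Klrc2 and 44.7% (36.9 to 52.8) of those without it, and in 66% (59 to 72.5) and 48.8% (41 to 56.7) of PD-1-/- cells. Klrc3, also the gene of an activating chain, showed no such split with Klrc1, with a phi coefficient of detection, which is 0 where 2 genes are found independently, of -0.02 on the WT plate and -0.06 on the PD-1-/- plate.

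Over all 28 pairs, the phi coefficient ran from -0.31 to 0.31 over WT cells and from -0.30 to 0.25 over PD-1-/- cells. The lowest values were those of Klrc1 with Klri2 (-0.31 and -0.23) and of Klrc1 with Klrc2 (-0.28 and -0.30). The 5 pairs known as partner chains ranged from -0.10 to 0.12 on the WT plate and from -0.01 to 0.09 on the PD-1-/- plate. Cells of a plate share a preparation and differ in depth, and a gene found in nearly every cell leaves little room for a coefficient. Of the 28 pairs, 19 were above 0 on the WT plate and 20 on the PD-1-/- plate.

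KLRE1 transcripts were present with and without those of a known partner. Klre1 was found in 97.2% of WT cells with Klri2 and 91.8% of those without it, and in 96.2% and 92.2% of PD-1-/- cells. It was found in 21 of 22 WT cells and 32 of 32 PD-1-/- cells with Klri1. Klri1 and Klri2 were found together in 11 WT and 21 PD-1-/- cells, 3.06% (1.54 to 5.40) and 5.74% (3.59 to 8.64). A cell had Klre1 and Klri2 in 57.8% of WT cells and 56% of PD-1-/- cells. In 18 WT and 20 PD-1-/- cells without Klre1, Klri2 was found in 33.3% (13.3 to 59) and 40% (19.1 to 64), and few cells stand behind these shares.

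Most cells with NKG2D transcripts had those of each adaptor, in shares close to those over all kept cells. DAP10 (Hcst) was found in 91.9% (88.6 to 94.6) of WT cells and 91.7% (88.3 to 94.3) of PD-1-/- cells with Klrk1. DAP12 (Tyrobp) was found in 98.9% (97.1 to 99.7) and 94.7% (91.9 to 96.8), and the intervals did not overlap. As the share of all genes with intervals apart is not given, this says nothing particular about Tyrobp. Of the PD-1-/- cells with Klrk1 but without Tyrobp, 15 of 19 had a CD3 chain gene, as did 4 of 4 on the WT plate. Tyrobp was found in 58 of 65 WT cells and 67 of 83 PD-1-/- cells that had a CD3 chain gene. Without those cells the shares with Tyrobp were 100% and 98.6%.

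A median of 5 of the 8 genes was found per cell on each plate. A cell with none of the 8 was seen 0 times among WT cells, which allows a share of up to 0.833% by the limit of 3 counts of the total, and 0 times among PD-1-/- cells, which allows up to 0.820%. The upper bounds of the exact intervals were 1.02% and 1.003%. All 8 were found in 2 PD-1-/- cells and in no WT cell. Shares were also set against the number of genes detected in a cell. Klrc1 was found in 48%, 56% and 62.4% of WT cells with fewer than 2000, 2000 to under 2500 and at least 2500 genes, and in 59.3%, 72% and 70.3% of such PD-1-/- cells. For Klrc3 the shares were 33.3%, 32.6% and 40.2% on the WT plate and 18.7%, 31.2% and 28.8% on the PD-1-/- plate. In each of the 3 ranges Klrc1 was higher and Klrc3 lower on the PD-1-/- plate, with overlapping intervals.

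Between the plates, mean RPKM over all kept cells was compared as a log2 ratio, PD-1-/- over WT, after adding 1 RPKM to each mean. Among 11537 genes above 0 in at least 3 wells whose mean reached 1 RPKM on one plate, 21.9% differed by at least 1.5-fold, and among the 4280 of them that were also present in 20% of cells or more on one plate, 3.55% did. The median log2 ratio was -0.02 over the 11537 genes and 0.08 over the 8. Of the 8, 2 were past 1.5-fold, Klrc3 and Klri1, a count near the 21.9% of all genes. Klri1 was not found in 20% of the cells of either plate. Among the members that were, Klrc3 alone was past that fold, beside 3.55% of such genes. A single gene just past the limit says nothing particular about the 8. Of the 8 means, 5 were higher and 3 lower on the PD-1-/- plate.

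Mean RPKM of Klrc3 was 41.4 in WT and 27.2 in PD-1-/- cells, a log2 ratio of -0.59, and 3.29% of the 4280 genes differed by more. It stood just past 1.5-fold, and in rows I to P of the plates, without CD3 chain cells, or with cells scaled to the same sum, it was within it (-0.37, -0.55 and -0.56). Mean RPKM of Klrc1 was 225.8 and 310.6, a log2 ratio of 0.46, within 1.5-fold, and 8.27% of the 4280 genes differed by more. Among cells with the transcript, the log2 ratios were smaller, 0.19 for Klrc1 and -0.18 for Klrc3, so that both differences lay more in the share of cells with the transcript than in its level. Klri1 had means of 14.6 and 23.7 RPKM, a log2 ratio of 0.66, from 22 and 32 cells.

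The other members differed less. The log2 ratio was 0.16 for Klrd1, 0.09 for Klrk1, 0.08 for Klre1, -0.03 for Klri2 and -0.04 for Klrc2, and 52.7% to 89% of the 4280 genes differed by more. For Klrd1, Klre1, Klri2 and Klrc2, the ratios of rows A to H and rows I to P had opposite signs. The signs were the same in both row blocks for Klrc1 (0.31 and 0.62), Klrc3 (-0.77 and -0.37), Klrk1 (0.04 and 0.13) and Klri1 (0.64 and 0.69).

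**Figure D5:**
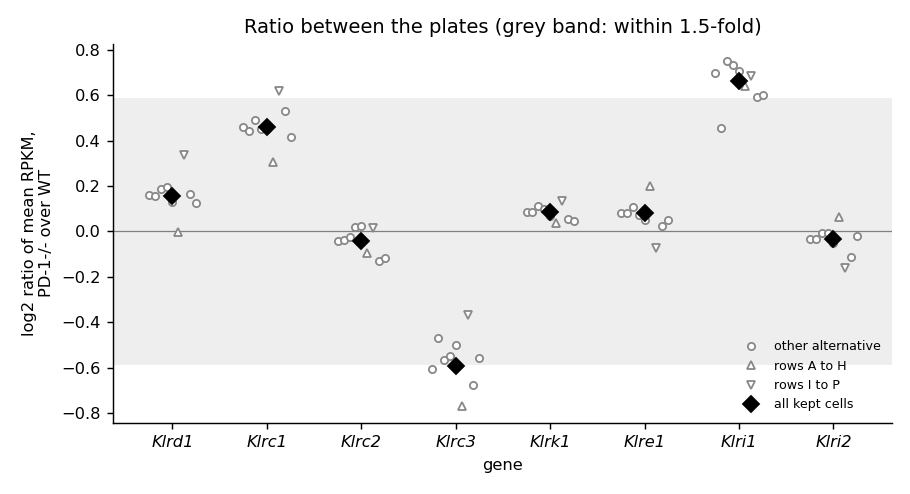
Log2 ratio of mean RPKM, PD-1-/- over WT (y axis), for the 8 genes (x axis). Black diamonds are all kept cells, open symbols the 9 alternatives, with triangles for rows A to H and rows I to P, and the grey band is within 1.5-fold; Klrc3 (-0.59) and Klri1 (0.66) lie outside it and Klrc1 (0.46) inside.

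Cells with Cxcr6 differed from the rest in Klrc1 and Klri2 on both plates. How many of all genes differed in this way was not counted, so the values below say nothing particular about the genes named. Of 28 WT cells with Cxcr6, 27 had Klrc1, 96.4% (81.7 to 99.9), against 52.4% (46.9 to 57.9) of those without it. On the PD-1-/- plate, 71 of 77 had it, 92.2% (83.8 to 97.1), against 60.6% (54.7 to 66.2). Klri2 was lower in cells with Cxcr6, at 21.4% against 62.7% on the WT plate and 29.9% against 65.7% on the PD-1-/- plate. Klrc3 was found in 17.9% (6.06 to 36.9) of WT cells with Cxcr6 and 36.7% (31.5 to 42.2) of those without it, and in 19.5% (11.3 to 30.1) and 28% (22.9 to 33.6) of PD-1-/- cells, with overlapping intervals. Klrc2 intervals overlapped on the WT plate, at 42.9% (24.5 to 62.8) with and 56.3% (50.8 to 61.7) without Cxcr6, and did not on the PD-1-/- plate, at 39% (28 to 50.8) and 58.8% (52.9 to 64.6). Within cells with Cxcr6 and within cells without it, the Klrc1 intervals of the plates overlapped, and the part of the larger number of cells with Cxcr6 on the PD-1-/- plate in the Klrc1 difference was not tested. In row A of the WT plate, where CD3 chain genes and Cxcr6 were more frequent and Eomes less, Klrc1 was found in 16 of 17 cells and Klri2 in 3. Without that row, Klrc1 was found in 53.9% and Klri2 in 61.5% of the other WT cells. That row held 10 of the 28 WT cells with Cxcr6, and the WT comparison by Cxcr6 is not given without it.

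Eomes encodes a transcription factor of mature NK cells, and no NKG2 gene had separate intervals in cells with and without it on both plates. Klrc3 was found in 42.6% (36 to 49.4) of WT cells with Eomes and 23.4% (16.6 to 31.3) of those without it, and in 31.2% (24.9 to 38.1) and 20.1% (14.3 to 27.1) of PD-1-/- cells. Klrc1 was found in 51.6% (44.8 to 58.3) and 62.8% (54.1 to 70.9) of WT cells and in 58.9% (51.8 to 65.8) and 77.4% (70.3 to 83.6) of PD-1-/- cells. Intervals thus did not overlap for Klrc3 on the WT plate and for Klrc1 on the PD-1-/- plate. How many of all genes had separate intervals by Eomes was not counted, so this is nothing particular to Klrc1 or Klrc3. Klrc2 intervals overlapped on both plates, at 57.8% (51.1 to 64.4) with and 51.1% (42.4 to 59.7) without Eomes on the WT plate and 60.4% (53.3 to 67.2) and 47.6% (39.7 to 55.5) on the PD-1-/- plate. Klri2 was found in 67.3% of PD-1-/- cells with Eomes and 47% of those without it, and in 63.7% and 52.6% of WT cells.

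Cells with a CD3 chain gene also carried the receptor transcripts. Klrd1 was found in 64 of 65 such WT cells and 83 of 83 such PD-1-/- cells, and Klrk1 in 59 and 81. Of the NK list, Klrb1c was found in 56 and 80 of these cells and Ncr1 in 48 and 62. Which cell type they are was not tested. Klri2 was less frequent in them, at 43.1% (30.8 to 56) against 63.1% (57.3 to 68.6) on the WT plate and 39.8% (29.2 to 51.1) against 63.6% (57.7 to 69.2) on the PD-1-/- plate. Klrc1 was found in 70.8% (58.2 to 81.4) of WT cells with a CD3 chain gene and 52.5% (46.7 to 58.4) of those without one, and in 73.5% and 65.4% of PD-1-/- cells. Summed RPKM of the 8 T cell markers averaged 246.4 on the WT plate and 398 on the PD-1-/- plate, with a median of 0 on each, and no marker of the list was at 0 on either plate. Leaving out cells with a CD3 chain gene, Klrc1 was found in 52.5% (46.7 to 58.4) of WT cells and 65.4% (59.5 to 70.9) of PD-1-/- cells.

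The Ly49 genes Klra3 (Ly49C) and Klra9 (Ly49I) encode inhibitory receptors for classical MHC class I of C57BL/6 mice. Klrc1 was found in 49.2% (42.6 to 55.7) of WT cells with Klra3 or Klra9 and 68.9% (59.8 to 76.9) of those without either, and in 58.9% (51.9 to 65.7) and 78% (70.7 to 84.2) of PD-1-/- cells. Cells with Klrc1 and neither Ly49 gene were 23.3% (19.1 to 28) of WT cells and 33.9% (29 to 39) of PD-1-/- cells, and cells with none of the 3 were 10.6% and 9.56%.

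Downstream of these receptors, 0 of 11 adaptor and signalling genes differed by 1.5-fold between the plates, with a median log2 ratio of 0.05. Beside the 3.55% of frequent genes past that fold, a count of 0 of 11 is no result about the list. They were found in 18.3% (Ptpn11, on the PD-1-/- plate) to 98.1% (Tyrobp, on the WT plate) of cells. The log2 ratios ran from -0.43 for Ptpn11, the gene of the phosphatase SHP-2, to 0.50 for Grb2, the gene of an adaptor, both found in 18.3% to 27% of cells. Ptpn6, the gene of SHP-1, which inhibitory receptors recruit, was found in 57.2% of WT cells and 55.7% of PD-1-/- cells, at mean levels of 264.3 and 303.5 RPKM. Tyrobp had the highest mean of the list, at 4231 and 3412 RPKM, and Hcst had 699 and 724.

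Of the ligand genes, H2-T23, which encodes Qa-1b, was found in 86.1% of WT cells and 86.6% of PD-1-/- NK cells, at means of 292.9 and 292.8 RPKM. Ligand genes of NKG2D were rare in the NK cells themselves. H60b was found in 10 WT and 9 PD-1-/- cells and Ulbp1 in 9 and 9. Raet1a, Raet1b, Raet1c and Raet1e were listed at 0 in all kept cells, Raet1d was found in 1 cell of each plate, and H60c in 1 PD-1-/- cell. The symbol H60a had no gene entry, so it could not be analysed. The limits of at least 3 wells and a mean of 1 RPKM were met by 3 ligand genes, H2-T23, H60b and Ulbp1, and 0 of them differed by 1.5-fold, which, beside the 21.9% of all genes, is no result about so few.

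The genes most like Klrc1 over cells included Thy1, Cd226, S100a4 and Ltb, ranked by the lower of the Spearman correlations over WT and over PD-1-/- cells among 3997 genes found in at least 20% of kept cells. For Thy1, which encodes the surface glycoprotein CD90, rho was 0.28 over the 360 WT cells and 0.35 over the PD-1-/- cells, and for Cd226, which encodes DNAM-1, 0.30 and 0.27. The genes most like Klrd1 were Klrb1c, Cd52, Klra14-ps, Id2 and the member Klre1, with rho of 0.25 and 0.26 for Klrb1c, which encodes NK1.1, the marker used in the sort. The genes most like Klrk1 were Ncr1, S1pr5, Adamts14, Malat1 and Tubb4b, with rho of 0.27 and 0.20 for Ncr1, which encodes NKp46. The median rho over all genes compared was within 0.03 of 0 for each of the 3, and cells of a plate share their preparation. With a Pearson correlation of log2(RPKM + 1), the 4 genes named for Klrc1 were again among its 5 most alike, as were 1 of 5 for Klrd1 and 0 of 5 for Klrk1.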

How the data were processed

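The authors made SMART-SEQ2 libraries of NK cells from 2 plates and deposited RPKM per gene and well, 24490 entries for 768 wells. The submitters' processing notes name TopHat, Cufflinks, mm9 and mm10 without roles. As both builds are named, no genome coordinates are given. The labels state 382 sorted cells, and the deposited plates hold 384 wells each. Wells with 1000 to 3500 genes were kept. The values are RPKM and not counts, and each genotype is 1 pool, so no count model and no test was used. Whole reads were recovered from the steps of low RPKM for 11700 genes found in at least 8 wells, 10139 of them with a single step, of whose 721300 low values 98.8% were whole, and used for depth and thinning only. Read recovery and log2 ratios were tested on simulated data. Genes named are the 8 members, their adaptor and ligand lists, Klra3, Klra9, Cxcr6, Eomes, the CD3 chain genes, cell type markers and the 5 genes most like Klrc1, Klrd1 and Klrk1, of which 1 is not reported here. The members and lists were chosen with earlier results of these data known. Alternatives changed the detection limit, cell filter, plate rows, pseudocount, scaling, depth and measure of likeness. RefSeq names and order came from GRCm38.p6, and 8 of 8 genes matched. Python 3.11.15, numpy 2.4.6, pandas 2.3.3, scipy 1.17.1 and matplotlib 3.10.9 were used.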

Additional observations from a re-analysis of the deposited data

How the results depend on the processing

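Over 13 alternative settings, all but 22 of the recomputed values stayed within their 95% interval, on the same side of 1.5-fold or, for counts, within 1.5 times. The log2 ratio of Klrc3 came within 1.5-fold with a pseudocount of 10 RPKM (-0.47), with cells scaled to the same sum (-0.56), with all wells kept (-0.55), with 1500 to 3000 detected genes (-0.50), in rows I to P (-0.37) and without cells with a CD3 chain gene (-0.55). That of Klri1 did so with a pseudocount of 10 RPKM (0.45), and that of Klrc1 passed 1.5-fold in rows I to P (0.62). The number of members past 1.5-fold was then 0 with a pseudocount of 10 RPKM and 1 with scaling, with all wells, with 1500 to 3000 genes and without CD3 chain cells. Without those cells, Klri2 was found in 63.6% of PD-1-/- cells, Klre1 in 100% of WT cells with Klri1, and Tyrobp in 100% of WT cells with Klrk1 and 98.6% of such PD-1-/- cells. In rows A to H, Klre1 was found in 96.7% of PD-1-/- cells. Of all genes compared, 21.9% were past 1.5-fold, which became 2.24% with a pseudocount of 10 RPKM and 36.2% (4269 genes against 2530) in rows A to H. Apart from the settings' own construction, the cause of these moves was not tested. Thinning to 100000 recovered reads, which left out 23 WT and 14 PD-1-/- shallower cells, moved no share out of its interval. No paired analysis was possible because each genotype is 1 pool on 1 plate and the numbers in the labels only count wells. Klri1 rests on few cells, and single reads without molecular identifiers are not independent molecules.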
